A study of Mus musculus with 24 samples.

Results

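The genes described here are 39 enzymes, regulators and transporters of sterol and fatty acid synthesis and cholesterol efflux, measured by RNA sequencing in cultured mouse astrocytes and microglia. A gene was taken when its symbol was one of the 39, when its mean in a table of 6 libraries was no less than 10 normalized counts, and when it had a value in each library of all 7 conditions used. Of the 39, 37 met that limit in all 6 tables, as did 9880 of the 24411 genes listed. The 2 that missed it were *Tm7sf2*, at 2.23, 3.38 and 2.63 in the 3 microglia tables, and *Stard4*, at 9.77 in the table of LPS-treated microglia of both genotypes. Just inside the limit was *Nr1h3*, at 11.2 in the table of quiescent astrocytes of both genotypes. By role, 7 members make mevalonate and its isoprenoid products, 11 turn these into cholesterol, and 7 make, desaturate or elongate fatty acids. A further 5 control the transcription factors called SREBPs, 5 belong to the liver X receptor (LXR) and efflux branch, and 4 move or store cholesterol inside the cell.

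Cells build cholesterol from acetyl-CoA through mevalonate, squalene and lanosterol, and the SREBPs switch on these enzymes when membrane sterol is low. SCAP carries the SREBPs to the Golgi for cleavage, and the INSIG proteins hold this complex in the endoplasmic reticulum when sterol is plentiful. Excess cholesterol yields oxysterols that activate the LXRs, which switch on the efflux pumps *Abca1* and *Abcg1*, and in the brain, where blood lipoproteins do not enter, astrocytes are a main source of cholesterol for other cells.

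The study asked whether glia carrying the *SOD1* G93A transgene, a mutant human gene that causes motor neuron disease in mice, differ from wild type (WT) glia at rest or after an inflammatory stimulus. Astrocytes were immunopanned with an antibody to HepaCAM from forebrains at postnatal day 5 after panning against CD45, BSL I and O4, and kept in serum-free medium with HBEGF. Microglia were isolated with Cd11b beads from whole brains at postnatal days 7 to 10 and kept in another serum-free medium, which held TGF-β2, IL-34, heparan sulfate and added cholesterol. Quiescent cells of both types received PBS, activated astrocytes received C1q (400 ng/ml), TNFα (30 ng/ml) and IL-1α (3 ng/ml) together, and activated microglia received LPS at 50 ng/ml.

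The 7 conditions were quiescent and activated astrocytes of both genotypes, quiescent WT microglia, and LPS-treated microglia of both genotypes, with 3 libraries each. A further 3 samples, *SOD1* G93A microglia without LPS, are not analysed here. The transgenic line was bred into the C57BL/6J strain in house, and its transgene is driven by the human promoter in all cells of the animal, not in glia alone. The study's methods describe the astrocyte isolation for WT mice. Libraries held 2016139 to 11570122 reads on genes, with a median of 5098168. WT activated astrocyte libraries held 5047999 to 6768201 reads and *SOD1* G93A activated astrocyte libraries 2135439 to 3929272, so these groups did not overlap in depth. To see how far libraries of a group differed beyond counting error, each pair was compared over genes with 10 or more reads in it, and the chi-square divided by its degrees of freedom was taken. It lay between 1.48 and 2.78 except in pairs with 1 library of a group. Those were WT quiescent astrocyte library 3 (8.97 and 6.497), *SOD1* G93A quiescent astrocyte library 1 (6.47 and 9.87), WT LPS library 1 (14.0 and 12.8) and *SOD1* G93A LPS library 3 (15.7 and 20.3). Nothing in the labels says whether the 3 libraries of a group came from separate animals or cultures, so p-values measure the spread between these libraries, which may be technical.

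Markers were checked as reads scaled to the library total (RPM), summed over lists of genes. The 11 astrocyte markers summed to between 4588 and 6831 in the 12 astrocyte libraries, with *Slc1a3* most abundant, and to between 142 and 240.5 in the 9 microglia libraries. The 12 microglia markers summed to 14079.7, 14703 and 13904 in quiescent WT microglia, where *Csf1r* was most abundant. After LPS they summed to 5359.8, 5049 and 5056 in WT and 5485, 5422 and 7121 in *SOD1* G93A microglia. In the astrocyte libraries they summed to between 199.9 and 474, with no marker of the list at 0. The 14 oligodendrocyte lineage markers summed to 3204, 3119.6 and 3028 in quiescent WT astrocytes, led by *Olig1*, with *Mog* at 0. In activated WT astrocytes they summed to 1166, 1203 and 1137. In quiescent WT microglia they summed to 1352, 1378 and 1392, nearly all of it *Cspg4*, and in LPS-treated WT microglia to 146, 145 and 146. The 6 neuron markers in quiescent WT astrocytes, at 945, 974 and 751, consisted mostly of *Map2*. Of the 6 endothelial markers *Cldn5* was at 0 in each astrocyte library, while *Flt1* brought the sum from 8.93, 9.9 and 13.4 in quiescent to 137, 148 and 153 in activated WT astrocytes. The 8 pericyte and fibroblast markers summed to 9.92, 11.8 and 18.6 in quiescent and 58.0, 53.8 and 47.1 in activated WT astrocytes. The part of these other transcripts in the results below was not tested.

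Throughout, values are the normalized counts of libraries 1, 2 and 3 of a group, in that order. Each comparison has its own normalization, so a library's value differs between comparisons. Changes are log2 fold changes of normalized count + 1 with their standard error (SE), tested with limma over all genes averaging at least 10 and adjusted by the Benjamini-Hochberg method over those genes. A gene is called when its adjusted p is under 0.001 and it differs by more than 2-fold. Counts at an adjusted p under 0.05, whatever the fold, are given beside the calls. The direction is given as rising or falling only for called genes.

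The first comparison set quiescent WT microglia against quiescent WT astrocytes and showed opposite profiles for the synthesis and the efflux branch. Both arms of cholesterol synthesis and most fatty acid enzymes were lower in microglia, while the efflux pumps, *Mylip* and the lysosomal cholesterol carriers were higher. The sterol-making enzymes summed to 606, 649.9 and 641 RPKM, reads scaled to exon length and library total, in the 3 astrocyte libraries and to 89.8, 93.0 and 86.9 in the 3 microglia libraries. On the same scale *Abca1* and *Abcg1* together reached 52.3, 63.5 and 59.2 in astrocytes and 343, 357 and 358 in microglia. In bulk libraries fewer cells of a type and less RNA per cell cannot be told apart, and cell type, age, isolation, region and medium, including the cholesterol added to microglia, differ together here and cannot be told apart.

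Of 38 members tested, 36 were called (94.7%), 10 of them higher and 26 lower in microglia, where 47.3% of all 12064 genes tested were called. Those called lower include *Tm7sf2*, which reached the mean of 10 only through astrocytes. With at least 10 in every library 37 members were tested, and 37 passed a limma adjusted p under 0.05, beside 75.6% of all genes. The median log2 difference was -1.41 over the members and -0.04 over all genes tested. By role the medians were -1.89 for the mevalonate arm, -1.68 for the sterol arm, -1.40 for fatty acid synthesis, -1.19 for SREBP control, 4.19 for the LXR and efflux genes and 1.67 for transport and storage. The members not called were *Scap* (-0.25) and *Acaca* (-0.90), and *Nr1h3* was under the limit of 10. A change of setting moved 3 single calls. *Hsd17b7*, at -1.10, was no longer called after quantile normalization (-0.86) or without quiescent microglia library 3 (-0.95), *Npc1* was no longer called after quantile normalization (0.81), and *Acaca* was called after quantile normalization (-1.35) and without quiescent astrocyte library 1 (-1.02).

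All 7 genes of the mevalonate arm were lower in microglia. *Hmgcs1*, the synthase that makes HMG-CoA, was at 3019, 3701 and 4057 in astrocytes and 274, 297 and 286 in microglia. The astrocyte libraries lay far above the microglia libraries, with a log2 difference of -3.64 ± 0.12 (SE; limma adjusted p = 6.8e-10). *Idi1*, which isomerizes isopentenyl diphosphate, was at 1012, 866 and 847 in astrocytes and 90.0, 79.0 and 103 in microglia. These groups did not overlap either, and the log2 difference was -3.31 ± 0.13 (SE; limma adjusted p = 2.3e-09). *Acat2*, the cytosolic thiolase of the first step, was at 282, 335 and 294 and 31.1, 53.4 and 31.9 in the same order. Each astrocyte library exceeded each microglia library, and the log2 difference was -2.98 ± 0.21 (SE; limma adjusted p = 2.2e-07).

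In the sterol arm, 10 of 11 genes were called lower in microglia and *Ebp*, the sterol isomerase, was called higher (1.24). *Sqle*, the squalene monooxygenase, was at 609.7, 743 and 801 in astrocytes and 70.7, 65.1 and 68.9 in microglia. All astrocyte libraries were well above all microglia libraries, by a log2 difference of -3.37 ± 0.12 (SE; limma adjusted p = 1.9e-09). *Tm7sf2*, a sterol reductase, was at 39.2, 54.1 and 30.3 in astrocytes and 6.22, 2.32 and 3.36 in microglia. The groups stayed apart, with a log2 difference of -3.12 ± 0.40 (SE; limma adjusted p = 3.0e-05). This gene reached the mean of 10 only through the astrocyte libraries. It was thus tested because of the group where it is high, and the size of its difference is inexact. *Tm7sf2* overlaps *Vps51* on the same strand, and how reads shared by both were counted is not given in the sources used here. *Cyp51*, the lanosterol demethylase, was at 1027, 1149.8 and 1134 in astrocytes and 139.7, 174 and 149.5 in microglia. Its libraries formed separate groups, with a log2 difference of -2.83 ± 0.11 (SE; limma adjusted p = 2.5e-09).

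Among the fatty acid enzymes 5 of 7 were called lower and 1 higher in microglia. *Elovl6*, the elongase acting on palmitate, was at 819, 821 and 756 in astrocytes and 47.0, 27.9 and 49.6 in microglia. The difference was the widest of the fatty acid genes, at -4.28 ± 0.19 (SE; limma adjusted p = 8.1e-09). *Scd1*, a stearoyl-CoA desaturase, was at 3964, 4818 and 3839.6 in astrocytes and 356, 372 and 391 in microglia, with astrocytes higher in each library. Its log2 difference was -3.49 ± 0.11 (SE; limma adjusted p = 5.8e-10). *Elovl1*, an elongase for very long chains, ran the other way, at 78.3, 90.2 and 102 in astrocytes and 799, 913 and 829.9 in microglia. The microglia libraries were all higher, with a log2 difference of 3.22 ± 0.12 (SE; limma adjusted p = 2.1e-09). In RPKM the 7 enzymes summed to 1628, 1871 and 1742 in astrocytes and 310.4, 322 and 319.8 in microglia, and *Scd2* had the highest mean level of all members in both (1268 and 193). *Scd1* and *Scd2* are close relatives on chromosome 19, and reads that fit both are divided by estimation in the counting, so the split between them is uncertain.

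Of the 5 SREBP regulators, 3 were called lower and 1 higher in microglia. *Insig1*, the INSIG that is itself an SREBP target, was at 968, 999 and 783 in astrocytes and 162, 209 and 178 in microglia. All astrocyte libraries were higher, and the log2 difference was -2.32 ± 0.13 (SE; limma adjusted p = 4.0e-08). *Insig2*, its paralog, was at 59.7, 47.8 and 56.3 in astrocytes and 147, 165 and 123 in microglia. Here the microglia libraries were higher, by 1.39 ± 0.17 (SE; limma adjusted p = 1.9e-05). *Srebf1*, which encodes the SREBP that favors fatty acid genes, was at 1963, 2193 and 1941 and 849, 881 and 831 in astrocytes and microglia. The groups were apart, with a log2 difference of -1.25 ± 0.09 (SE; limma adjusted p = 3.3e-07).

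The 4 LXR and efflux genes tested were all called higher in microglia. *Abcg1*, which moves cholesterol to lipoprotein particles, was at 39.2, 80.7 and 80.5 in astrocytes and 6538, 7521 and 7187 in microglia. Its log2 difference of 6.78 ± 0.23 (SE; limma adjusted p = 1.1e-09) was the largest of the members. *Mylip*, a ubiquitin ligase switched on by LXR, was at 22.4, 30.8 and 22.0 in astrocytes and 1752, 1759 and 1672 in microglia, a difference of 6.07 ± 0.14 (SE; limma adjusted p = 1.2e-10). No library of one cell type approached those of the other for either gene, and the microglia markers given above were also present in the astrocyte libraries at low levels. *Abca1*, which loads cholesterol onto apolipoproteins, was at 1980.2, 2428 and 2383 in astrocytes and 11124, 11233 and 11454 in microglia. Microglia were higher in each library, with a log2 difference of 2.32 ± 0.12 (SE; limma adjusted p = 1.9e-08).

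For transport and storage, 3 of 4 genes were higher in microglia. *Npc2*, the soluble lysosomal cholesterol carrier, was at 824, 794 and 661 in astrocytes and 3442, 3996 and 3498 in microglia. *Soat1*, which esterifies cholesterol for storage, was at 412, 354 and 444 and 1449.5, 1712 and 1577 in the same order. Both were higher in each microglia library, with log2 differences of 2.26 ± 0.11 (SE; limma adjusted p = 1.6e-08) and 1.97 ± 0.11 (SE; limma adjusted p = 4.1e-08). *Stard4*, a cytosolic sterol carrier, was at 144, 178 and 193 in astrocytes and 36.8, 51.1 and 35.3 in microglia. It was lower in all microglia libraries, by a log2 difference of -2.05 ± 0.19 (SE; limma adjusted p = 2.5e-06).

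**Figure D1:**
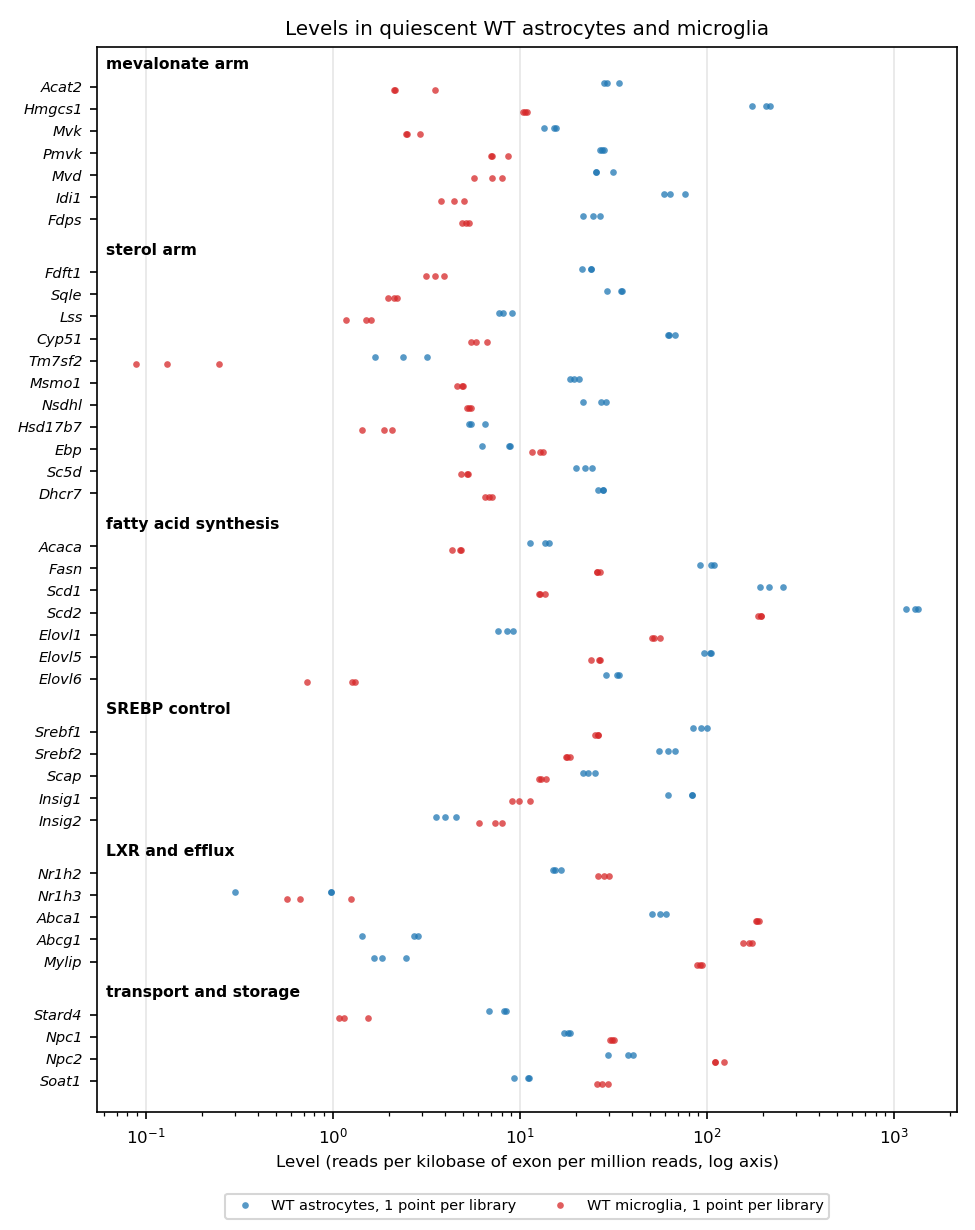
Level of each of the 39 members in the 3 quiescent WT astrocyte libraries and the 3 quiescent WT microglia libraries, in RPKM (reads scaled to exon length and library total) on a log axis, 1 point per library, grouped by role. Most synthesis genes lie further right in astrocytes, while *Abca1*, *Abcg1*, *Mylip*, *Npc2* and *Elovl1* lie further right in microglia.

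Other genes of the pathway were counted in 3 lists. Of the genes that supply acetyl-CoA or modify fatty acids, 8 of 13 tested were called, all of them lower in microglia. Of all 12064 genes tested, 5702 were called (47.3%), 2986 of them lower. The largest estimates were in elongases of very long polyunsaturated and saturated chains. *Elovl2* was at 106, 113 and 123 in astrocytes and 2.26, 2.32 and 1.68 in microglia. *Elovl4* was at 110.0, 83.9 and 97.6 in astrocytes and 1.7, 2.32 and 2.52 in microglia, where no library had more than 3 reads. Both elongases reached the mean of 10 only through astrocytes. They were thus tested because of the group where they are high, and the size of their differences is inexact. None of the 9 SREBP processing genes tested was called by limma, of which 6 had an unadjusted p under 0.05, as did 79.6% of all genes. Of the genes for sterol transport, turnover and oxysterols, 12 of 21 were called, 10 higher and 2 lower. The share of all genes called, 47.3%, was not far from that of this list, so the count of 12 is no result about it. Among the higher was *Ch25h*, the cholesterol 25-hydroxylase, at 14.9, 34.0 and 53.7 and 2816, 3048 and 2832 in astrocytes and microglia, groups far apart. *Lipa*, the lysosomal acid lipase, was at 153, 212 and 190.0 in astrocytes and 4526, 5132 and 4651 in microglia, a log2 difference of 4.69 ± 0.12 (SE). The lower were *Abcg4*, a sterol pump (72.7, 57.3 and 88.4 in astrocytes and 3.39, 0 and 0.84 in microglia), and *Cyp46a1*, the cholesterol 24-hydroxylase, at 41.0, 45.7 and 39.6 in astrocytes and 1.7, 4.65 and 2.52 in microglia, where no library had more than 3 reads. *Abcg4* and *Cyp46a1* also reached the mean of 10 only through astrocytes, so the count of 2 lower rests on that limit.

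WT astrocytes exposed to IL-1α, TNFα and C1q kept most members within 2-fold of the quiescent level. *Insig2*, which holds back SREBP release, rose, and *Elovl5*, an elongase of polyunsaturated fatty acids, fell. Under the limit of an adjusted p of 0.05, which 38.3% of all genes passed, 4 of 7 fatty acid genes passed, 1 higher and 3 lower, as did 4 of 5 SREBP control genes, 2 higher and 2 lower. Summed in RPKM, the sterol-making enzymes were at 606, 649.9 and 641 in quiescent and 539, 509.8 and 549 in activated libraries. The fatty acid enzymes, with *Scd2* the highest, were at 1628, 1871 and 1742 in quiescent and 1117, 1121 and 1279 in activated libraries. *Abca1* and *Abcg1* together were at 52.3, 63.5 and 59.2 in quiescent and 99.1, 100.2 and 106.4 in activated libraries. In none of these sums did the groups overlap.

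Of 39 members tested, 2 were called (5.13%), where 11.5% of all 12336 genes tested were called. At an adjusted p under 0.05, 16 members passed (41.0%), 7 higher and 9 lower, beside 38.3% of all genes. The first share is lower than that of all genes and the second close to it, so neither is a result about the members. The members' median log2 change was -0.04 and that of all genes 0.01. By role the medians were -0.09 for the mevalonate arm, -0.08 for the sterol arm, -0.29 for fatty acid synthesis, 0.09 for SREBP control, 0.36 for LXR and efflux and -0.27 for transport and storage. The 5 LXR and efflux genes had positive estimates and 3 passed the wider limit. Among the 3 was *Nr1h3*, the lowest member in RPKM in quiescent (mean 0.757) and activated (mean 2.16) WT astrocytes. It is not tested with at least 10 in every library, so its pass leans on the group where it is high. With that filter 15 of 38 members passed, 6 higher and 9 lower, beside 4320 of all 11433 genes. Over the same libraries the oligodendrocyte lineage markers went from 3204, 3119.6 and 3028 to 1166, 1203 and 1137 RPM, the astrocyte markers from 5464, 5891 and 6831 to 4811, 4828 and 4851 and the neuron markers from 945, 974 and 751 to 383, 437 and 436. Of 11 astrocyte markers 8 were lower and 1 higher at the wider limit, 3 of them called lower, with a median log2 change of -0.80. The endothelial and pericyte markers given above went up, and the part of all these markers in the members' values was not tested.

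*Insig2* was at 74.5, 59.0 and 68.3 in quiescent and 240.1, 245 and 219 in activated WT astrocytes. The groups were widely separated, and the log2 change was 1.79 ± 0.13 (SE; limma adjusted p = 1.3e-06). The gene lies on the minus strand of chr1:121304353-121332589 in GRCm38. *Elovl5* was at 1735, 1753 and 1693 in quiescent and 822, 851 and 861 in activated libraries, which did not overlap. Its log2 change of -1.03 ± 0.08 (SE; limma adjusted p = 1.4e-06) was just past the 2-fold limit, and it was called without each library in turn.

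The other SREBP genes stayed within 2-fold. *Insig1* was at 1209, 1235 and 949.7 in quiescent and 828, 759.5 and 934 in activated libraries. The lowest quiescent library was close to the highest activated one, and the log2 change was -0.42 ± 0.12 (SE; limma adjusted p = 0.015). *Srebf1* was at 2453, 2711 and 2355 in quiescent and 1542, 1585 and 1752 in activated libraries, with all activated libraries lower and a log2 change of -0.62 ± 0.09 (SE; limma adjusted p = 2.7e-04). *Srebf2*, whose product favors cholesterol genes, was at 1882, 2134 and 2418 in quiescent and 2189, 2112 and 2542 in activated libraries. These groups overlapped, with a log2 change of 0.09 ± 0.11 (SE; limma adjusted p = 0.56). *Scap*, which encodes the SREBP escort, was at 815, 778 and 934 in quiescent and 1100.2, 1175 and 1194 in activated libraries. Its activated libraries were all higher, with a log2 change of 0.46 ± 0.09 (SE; limma adjusted p = 0.0022).

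Of the synthesis genes, *Hmgcs1* was at 3771, 4574 and 4922 in quiescent and 2816, 2839 and 3147 in activated libraries. Activated libraries were lower without overlap, with a log2 change of -0.58 ± 0.11 (SE; limma adjusted p = 0.0017). *Sqle* was at 762, 918 and 972 in quiescent and 779, 734 and 742 in activated libraries, and the groups overlapped (-0.23 ± 0.10 (SE; limma adjusted p = 0.1)). *Fasn*, the fatty acid synthase, was at 4747, 5702 and 5724 in quiescent and 3458, 3289 and 4062 in activated libraries. All activated libraries were lower, by a log2 change of -0.58 ± 0.11 (SE; limma adjusted p = 0.002). *Scd2*, the most abundant desaturase of brain, was at 29836, 35138 and 34927 in quiescent and 19937, 19888 and 23365 in activated libraries, again without overlap (-0.66 ± 0.14 (SE; limma adjusted p = 0.0036)). *Scd1* was at 4952, 5954 and 4659 in quiescent and 4738, 4690.4 and 5674 in activated libraries. Its groups overlapped and its log2 change was -0.04 ± 0.12 (SE; limma adjusted p = 0.82). *Elovl1*, an elongase for very long chains, was at 97.8, 112 and 124 in quiescent and 186, 186 and 153 in activated libraries, and the activated libraries were all higher (0.65 ± 0.14 (SE; limma adjusted p = 0.0028)).

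The efflux pumps differed from each other in size of estimate. *Abca1* was at 2474, 3001 and 2891 in quiescent and 4898, 4828 and 5360.2 in activated libraries. Each activated library was higher, with a log2 change of 0.85 ± 0.10 (SE; limma adjusted p = 5.4e-05), short of the 2-fold limit. *Abcg1* was at 48.9, 99.7 and 97.6 in quiescent and 69.4, 131 and 75.9 in activated libraries. The groups overlapped, and the log2 change was 0.18 ± 0.30 (SE; limma adjusted p = 0.68). Among the other genes of the pathway, 2 of 14 supply genes and 1 of 23 transport and oxysterol genes were called, beside 11.5% of all genes. None of 9 SREBP processing genes was called, while 4 had an unadjusted limma p under 0.05, which 46.8% of all genes passed. *Elovl2* fell from 133, 139 and 149 to 56.9, 53.5 and 40.5, with no overlap between the groups. *Lpin1*, a phosphatidate phosphatase, fell from 731, 768 and 703 to 303, 327 and 375. *Cyp7b1*, the oxysterol 7α-hydroxylase, rose from 14.0, 26.2 and 16.5 to 189, 179 and 169, a log2 change of 3.22 ± 0.22 (SE; limma adjusted p = 8.4e-07).

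*SOD1* G93A astrocytes given the same factors also raised *Insig2*, and 10 of their 18 sterol-making genes were higher than in quiescent cells at an adjusted p under 0.05, as were 21.9% of all genes tested. These values come from a fit of all 12 astrocyte libraries, on reads scaled together. *Insig2* was at 74.9, 78.2 and 81.0 in quiescent and 241, 261 and 241 in activated *SOD1* G93A libraries. The groups did not overlap, with a log2 change of 1.65 ± 0.12 (SE; limma adjusted p = 3.7e-09). It was the 1 member called of 39 tested (2.56%), where 13.3% of all 12269 genes tested were called. At an adjusted p under 0.05, 24 members passed (61.5%), 18 higher and 6 lower, beside 43.4% of all genes. The median log2 change was 0.26 over the members and 0.00 over all genes, with 0.30 for the mevalonate arm, 0.38 for the sterol arm and 0.00 for fatty acid synthesis. Between the same libraries the oligodendrocyte lineage markers went from 3605, 3359 and 3392 to 1143, 1112 and 1187 RPM and the neuron markers, mostly *Map2*, from 911, 994 and 987 to 389.9, 403 and 424. The microglia markers went from 452, 474 and 314 to 300.4, 209 and 226, the endothelial markers, nearly all *Flt1*, from 6.61, 7.45 and 6.99 to 118, 117 and 111, and the pericyte and fibroblast markers from 9.55, 9.24 and 9.42 to 34.7, 39.7 and 37.5. Of 11 astrocyte markers 5 were lower and 1 higher at the wider limit (median -0.30), 2 of them called lower and 1 higher. The part of these markers in the members' values was not tested.

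*Msmo1*, the sterol C4-methyl oxidase, chosen here after its values were seen, was at 483, 531 and 459 in quiescent and 922, 1058 and 949.7 in activated *SOD1* G93A libraries. The groups were apart and the log2 change of 0.99 ± 0.09 (SE; limma adjusted p = 1.0e-07) ended just short of 2-fold. With a term for sequencing depth 3 members were called, *Msmo1* (1.10) and *Elovl1* (1.15) beside *Insig2*. Leaving out 1 library gave 2 calls in 5 cases. *Msmo1* was called without *SOD1* G93A quiescent library 2 (1.05), activated library 1 (1.03) or activated library 3 (1.01), *Elovl1* without *SOD1* G93A quiescent library 1 (1.04), and *Nr1h3* without WT quiescent library 3 (1.40). Of the other genes, *Elovl2* fell from 120.4, 109 and 102 to 42.8, 48.3 and 64.8, and *Cyp7b1* rose from 12.1, 14.1 and 7.96 to 129.8, 122 and 121. No other gene of the 3 lists was called, among 14, 9 and 23 tested, beside 13.3% of all genes.

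In WT microglia exposed to LPS, 3 of 7 fatty acid genes, 2 of 10 sterol arm genes and 2 of 4 transport and storage genes fell. That is 7 of 38 members (18.4%), where 10.6% of all genes tested were called lower. Among the 7, *Stard4* reached the mean of 10 only through the quiescent libraries. No gene of the mevalonate arm or of SREBP control was called with limma. *Scd2* fell about 5-fold, and *Dhcr7*, *Cyp51*, *Elovl5*, *Fasn*, *Npc1* and *Stard4* fell as well. *Nr1h3*, which encodes LXRα, was the 1 member called higher. The 7 fatty acid enzymes together went from 310.4, 322 and 319.8 to 98.8, 91.2 and 103 RPKM, and the sterol-making enzymes from 89.8, 93.0 and 86.9 to 65.3, 59.3 and 66.1.

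Of 38 members tested, 8 were called (21.1%), 1 higher and 7 lower, where 20.8% of all 10866 genes tested were called. The share called was thus that of all genes. At an adjusted p under 0.05, 24 members passed (63.2%) beside 56.9% of all genes, and 19 of the 38 were lower, beside 28.3% of all genes. The members' median log2 change was -0.40 and that of all genes 0.00. By role the medians were -0.22 for the mevalonate arm, -0.55 for the sterol arm, -0.93 for fatty acid synthesis, -0.24 for SREBP control, -0.01 for LXR and efflux and -0.71 for transport and storage. Without LPS library 1, set apart in the chi-square above, 6 members were called, all lower, *Fasn* and *Nr1h3* were not, and 2334 of all genes were called. All 7 fatty acid genes had negative estimates, 3 were called and 6 passed the wider limit. *Tm7sf2* was not tested, with 5.58, 2.1 and 3.03 in quiescent and 0, 2.46 and 2.6 in LPS libraries, the latter from 2 reads at most.

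*Scd2* was at 5302, 5754 and 5595 in quiescent and 1069, 1010.5 and 1191 in LPS-treated WT microglia. The LPS libraries lay far below, with a log2 change of -2.35 ± 0.09 (SE; limma adjusted p = 4.7e-09). *Elovl5* was at 483, 457 and 495 in quiescent and 183, 210.2 and 251 in LPS libraries. Its groups were apart, with a log2 change of -1.16 ± 0.12 (SE; limma adjusted p = 1.6e-05). *Fasn* was at 1454, 1576 and 1499 in quiescent and 622, 762 and 798 in LPS libraries. All LPS libraries were lower (-1.06 ± 0.10 (SE; limma adjusted p = 8.8e-06)), and without LPS library 1 the change was -0.95 and no longer past 2-fold. *Scd1* was at 319, 337 and 353 in quiescent and 184, 149 and 197 in LPS libraries. Its LPS libraries were lower by -0.93 ± 0.12 (SE; limma adjusted p = 8.3e-05), and it passed 2-fold after quantile normalization (-1.004) and without LPS library 3 (-1.02).

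In the sterol branch, *Dhcr7*, which completes cholesterol from 7-dehydrocholesterol, was at 207, 223 and 199 in quiescent and 80.8, 65.2 and 76.8 in LPS libraries. The LPS values were less by a wide margin, with a log2 change of -1.49 ± 0.13 (SE; limma adjusted p = 3.3e-06). *Cyp51* was at 125, 158 and 135 in quiescent and 66.1, 55.3 and 61.2 in LPS libraries, also without overlap (-1.18 ± 0.14 (SE; limma adjusted p = 4.8e-05)). *Sqle* was at 63.4, 58.9 and 62.1 in quiescent and 49.9, 39.3 and 35.2 in LPS libraries. The LPS libraries were lower and the change of -0.57 ± 0.18 (SE; limma adjusted p = 0.019) was within 2-fold. *Hmgcs1*, from the mevalonate arm, was at 246, 269 and 257 in quiescent and 275, 274 and 283 in LPS libraries. The LPS libraries were slightly higher, and the log2 change was 0.11 ± 0.09 (SE; limma adjusted p = 0.35).

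None of the SREBP regulators was called with limma, while 4 of 5 had an unadjusted p under 0.05, as had 61.6% of all genes. *Insig1* was at 145, 189 and 160.5 in quiescent and 184, 234 and 239.6 in LPS libraries. The groups overlapped at their edges, with a log2 change of 0.41 ± 0.14 (SE; limma adjusted p = 0.031). *Insig2* was at 131, 149 and 111 in quiescent and 134, 132 and 132 in LPS libraries, with LPS libraries inside the quiescent range (0.03 ± 0.13 (SE; limma adjusted p = 0.88)). *Srebf1* was at 762, 797 and 749 in quiescent and 679, 643 and 633 in LPS libraries. The LPS libraries were lower by a log2 change of -0.24 ± 0.08 (SE; limma adjusted p = 0.027). *Srebf2* was at 655, 713 and 679.6 in quiescent and 427, 519 and 591 in LPS libraries, also lower without overlap (-0.42 ± 0.12 (SE; limma adjusted p = 0.011)).

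In the LXR branch, *Nr1h3* was at 8.63, 16.8 and 7.57 in quiescent and 49.9, 39.3 and 29.9 in LPS libraries. The LPS libraries were all higher, with a log2 change of 1.81 ± 0.33 (SE; limma adjusted p = 9.1e-04). This call was lost in 9 of the other settings, with adjusted p from 3.0e-06 to 0.0051 over all limma, DESeq2 and edgeR alternatives. The settings were a pseudocount of 0.5, no filter, no trend, a depth term, and leaving out quiescent library 1 or 3 or LPS library 1 (1.64), 2 or 3. *Abca1* was at 9977, 10172 and 10320.4 in quiescent and 5247, 10370.1 and 10299 in LPS libraries. LPS library 1, which also stood apart over many genes (above), was about 2-fold below the rest, and the log2 change was -0.30 ± 0.22 (SE; limma adjusted p = 0.26). *Abcg1* was at 5864, 6809.9 and 6476 in quiescent and 4005, 4769.6 and 4555 in LPS libraries. The LPS libraries were lower and did not overlap, with a log2 change of -0.52 ± 0.09 (SE; limma adjusted p = 7.5e-04).

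Of the cholesterol carriers, *Npc1*, the lysosomal membrane protein that works with NPC2, was at 1813, 1843 and 1906 in quiescent and 698, 935 and 850.3 in LPS libraries. It fell in each LPS library, with a log2 change of -1.17 ± 0.11 (SE; limma adjusted p = 5.5e-06). *Stard4* was at 33.0, 46.3 and 31.8 in quiescent and 9.55, 4.92 and 13.0 in LPS libraries, and the LPS libraries were all lower (-1.97 ± 0.35 (SE; limma adjusted p = 7.0e-04)). It reached the mean of 10 only through the quiescent libraries, so its call depends on the group where it is high. That call was lost in 9 other settings, with adjusted p from 1.7e-05 to 0.0056 over all limma, DESeq2 and edgeR alternatives. They were no filter, quantile normalization, no trend, the replicate block, a depth term, and leaving out quiescent library 1, 2 or 3 or LPS library 2 (-1.62). *Npc2*, chosen here after its values were seen, was at 3087, 3619 and 3152 in quiescent and 7231, 6270.5 and 6116 in LPS libraries. The LPS libraries were higher by 0.99 ± 0.10 (SE; limma adjusted p = 8.1e-06), just short of 2-fold, and passed it with TMM scaling (1.01) and without quiescent library 2 (1.06), LPS library 2 (1.02) or LPS library 3 (1.04).

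**Figure D2:**
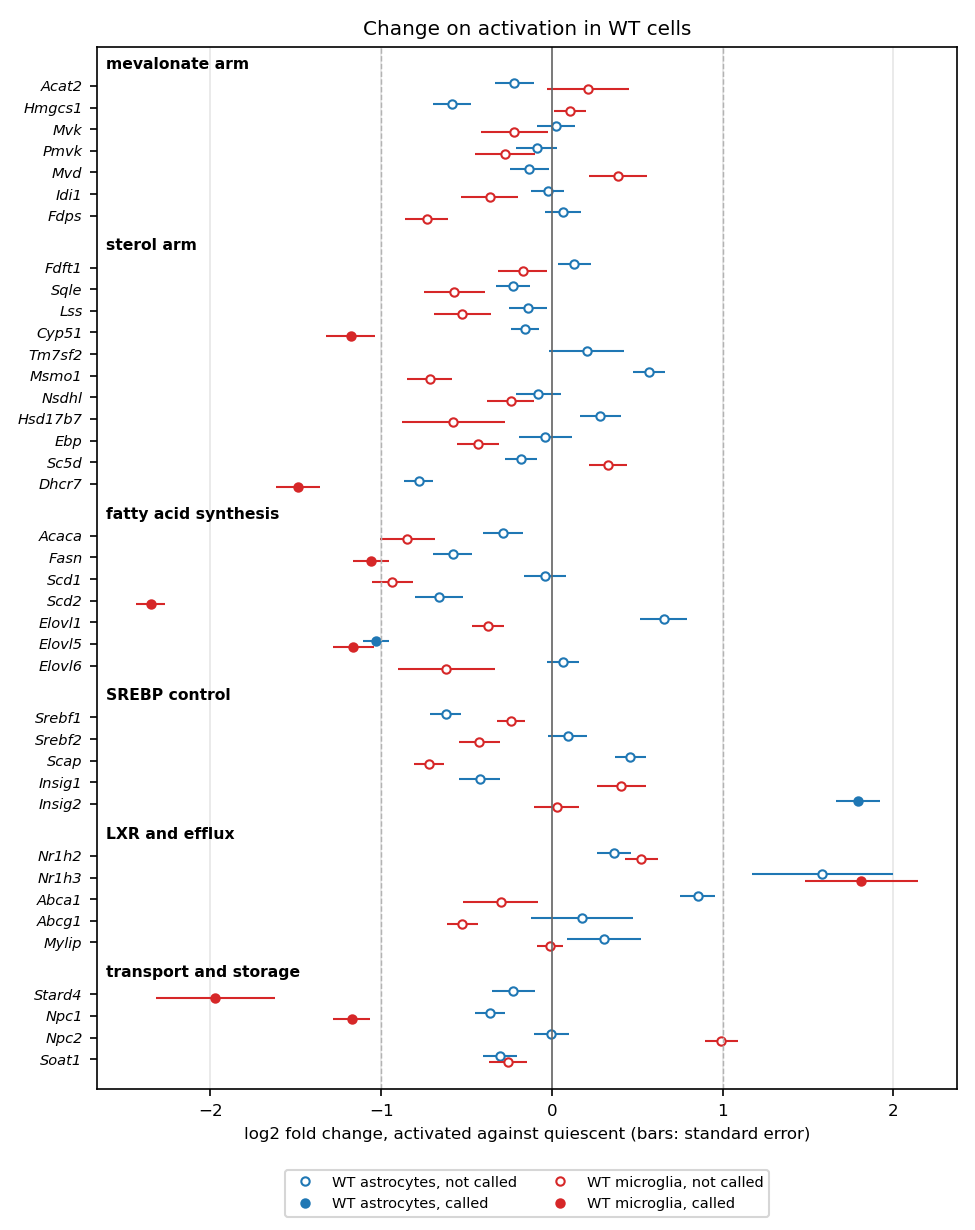
Log2 fold change of activated against quiescent cells for each member, with WT astrocytes in blue and WT microglia in red, bars giving the standard error and dashed lines the 2-fold limits. Filled points are called genes, *Insig2* and *Elovl5* in astrocytes and 8 members in microglia.

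Among the other genes, 2 of 11 supply genes, 1 of 9 SREBP processing genes and 8 of 20 transport and oxysterol genes were called, beside 20.8% of all genes. The supply and SREBP processing shares lie under that of all genes, so their counts are no result about these lists. *Lpin1* fell from 71.0, 58.9 and 68.1 to 27.9, 22.1 and 20.8. *Fads1*, the delta-5 desaturase, fell from 376, 393 and 398 to 159, 183 and 182. Both were lower in each LPS library. *Ubxn8*, of the endoplasmic reticulum degradation machinery, rose from 78.7, 86.3 and 81.0 to 163, 184 and 169. In the transport list 4 rose and 4 fell. *Stard5*, a sterol carrier, rose from 36.0, 33.7 and 40.1 to 393, 388 and 362. *Soat2*, a cholesterol acyltransferase, rose from 12.2, 8.42 and 13.6 to 89.6, 83.6 and 52.1. Neither gene's groups overlapped. *Abca2*, an endolysosomal lipid transporter, fell from 349.6, 446 and 355 to 77.1, 83.6 and 72.9. *Lipa* fell from 4059, 4647 and 4191 to 1004, 1242 and 1259. Both falls separated the groups completely. Of the 12 microglia markers 8 were called lower (median -1.54). Like *Cspg4*, given above, their sum went down in the LPS libraries. The endothelial markers, led by *Flt1* in quiescent and *Kdr* in LPS libraries with *Cldn5* and *Tek* at 0, summed to 67.0, 75.3 and 75.1 RPM in quiescent and 45.6, 55.9 and 50.7 in LPS libraries. The pericyte and fibroblast markers, led by *Col1a1* and then *Dcn*, with *Kcnj8* at 0, summed to 12.4, 6.27 and 5.76 in quiescent and 21.7, 22.2 and 18.2 in LPS libraries. Both sums shifted without overlap, the first down and the second up. The neuron markers, mostly *Map2*, went from 17.0, 14.5 and 16.0 to 12.1, 8.83 and 13.9, and the astrocyte markers from 177, 164 and 174 to 206, 161 and 240.5. The part of all these markers in the members' values was not tested.

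The response to activation was then compared directly, as the LPS change in WT microglia minus the cytokine change in WT astrocytes in 1 fit of 12 libraries. *Insig2*, *Scd2*, *Msmo1*, *Scap* and *Elovl1* responded less or more negatively in microglia, and *Npc2* more positively. Cell type, stimulus and medium differ together and cannot be told apart, and the fit uses the same libraries as both activation comparisons. Of 39 members, 6 were called (15.4%), 1 positive and 5 negative, where 15.2% of all 12334 genes tested were called, so the share was that of all genes. With the limit at an adjusted p of 0.05 there were 20 members (51.3%), where 41% of all genes passed. The 39 include *Tm7sf2*, which averaged 2.63 in WT microglia and reached the mean of 10 only through astrocytes. With at least 10 in every library 36 members were tested and 19 passed that limit, beside 4078 of all 9298 genes. The members' median difference was -0.37 and that of all genes 0.00. *Insig2* differed by -1.74 ± 0.19 (SE; limma adjusted p = 4.8e-06), having risen in astrocytes while its LPS libraries stayed in the quiescent range. For *Scd2* the difference was -1.66 ± 0.17 (SE; limma adjusted p = 1.8e-06). *Msmo1* was at 459, 496 and 558 in quiescent and 794, 704 and 719 in activated astrocytes, and at 184, 188 and 174 in quiescent and 129, 98.2 and 107 in LPS microglia. Its libraries shifted up in astrocytes and down in microglia, a difference of -1.26 ± 0.16 (SE; limma adjusted p = 2.2e-05). *Scap*, the SREBP escort, was at 701, 675 and 832 in quiescent and 947, 1018 and 1026 in activated astrocytes, and at 622, 585 and 595 in quiescent and 364, 354 and 380.1 in LPS microglia. The shifts were again opposite, with a difference of -1.16 ± 0.13 (SE; limma adjusted p = 5.1e-06).

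Other calls of this difference lay close to the limits. *Elovl1* was at 84.1, 96.7 and 110.3 in quiescent and 160.2, 161 and 132 in activated astrocytes, and at 842, 958 and 872 in quiescent and 750.1, 659 and 664 in LPS microglia. Its difference, -1.003 ± 0.17 (SE; limma adjusted p = 2.4e-04), was within 2-fold or above the p limit in 11 alternatives, among them without WT quiescent astrocyte library 1 (-0.91), activated astrocyte library 1 (-0.96) or 2 (-0.95), quiescent microglia library 2 (-0.95), and LPS library 2 (-0.97) or 3 (-0.98). *Npc2* was at 885, 851 and 714 in quiescent and 766, 835 and 808 in activated astrocytes, and at 3625, 4192 and 3674 in quiescent and 8548, 7257 and 7199 in LPS microglia. It overlapped between astrocyte states and not between microglia states, and its difference, 1.02 ± 0.15 (SE; limma adjusted p = 7.3e-05), was lost in 10, among them without quiescent astrocyte library 1 (0.96) or 2 (0.99), activated astrocyte library 1 (0.99), quiescent microglia library 1 (0.98) or 3 (0.99), or LPS library 1 (0.94). *Cyp51*, at -0.99997, was at the 2-fold limit itself and was called in 12 alternatives, including without quiescent astrocyte library 2 (-1.03) or 3 (-1.02), activated astrocyte library 2 (-1.02) or 3 (-1.01), quiescent microglia library 1 (-1.07) or 3 (-1.02), or LPS library 1 (-1.07) or 3 (-1.01). *Stard4* (-1.74) was called with DESeq2, edgeR and without LPS library 3 (-2.02), and *Abca1* (-1.13) with DESeq2 and after quantile normalization. Of the other genes, 8 of 23 transport and oxysterol genes were called, beside 15.2% of all genes. The largest positive differences were for *Stard5* (3.18) and *Gramd1a* (1.74), a sterol carrier between membranes. The largest negative ones were for *Abca2* (-2.61) and *Abca5* (-2.04), another lipid transporter. No supply gene of 14 and no SREBP processing gene of 9 was called with limma, while 7 and 6 had an unadjusted p under 0.05, beside 48.6% of all genes.

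Between quiescent *SOD1* G93A and WT astrocytes no member was called. The fatty acid genes *Elovl6* and *Scd1* and the regulator *Insig1* had the lowest p, each with higher values in the transgenic libraries. Of 39 members, 0 were called with limma, 0 with DESeq2 and 0 with edgeR, and 0% of all 12271 genes tested were called with limma. At an unadjusted p under 0.05, 6 members passed (15.4%), 5 higher and 1 lower, beside 8.7% of all genes. The members' median log2 difference was 0.00 and that of all genes 0.00. Depth ran in opposite order over the libraries, with 2016139, 3637657 and 9258718 reads in WT and 9526331, 7251063 and 3292225 in *SOD1* G93A libraries. With a term for depth 2 members were higher at a limma adjusted p under 0.05 (5.13%), while over all genes 746 passed (6.08%) in place of 7 and 13 were called. In that fit 9 members passed the unadjusted limit (23.1%), beside 23.9% of all genes, so the share was that of all genes. Without WT library 3, *SOD1* G93A library 1 or *SOD1* G93A library 2, 3 members passed it (7.69%), beside 8.35%, 11.1% and 4.1% of all genes.

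Cell type markers were read in the same libraries. All 12 microglia markers had higher estimates in *SOD1* G93A libraries (median 0.56), 5 of them at an unadjusted p under 0.05, and their sums were 199.9, 285 and 359 RPM in WT and 452, 474 and 314 in *SOD1* G93A libraries, which overlapped. Of 11 astrocyte markers 10 had lower estimates (median -0.27), with sums of 5464, 5891 and 6831 and 5673, 5217 and 4588. Of 11 oligodendrocyte lineage markers 5 were lower at that limit, while their sums, led by *Olig1*, were 3204, 3119.6 and 3028 and 3605, 3359 and 3392. The endothelial sums were 8.93, 9.9 and 13.4 and 6.61, 7.45 and 6.99, and the pericyte and fibroblast sums 9.92, 11.8 and 18.6 and 9.55, 9.24 and 9.42. The part of these markers in the members' values was not tested.

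The 3 members with the lowest p were *Insig1*, *Elovl6* and *Scd1*. *Insig1* was at 1275, 1286 and 984 in WT and 1638, 1570.2 and 1797 in *SOD1* G93A libraries. The transgenic libraries were all higher, by a log2 difference of 0.51 ± 0.12 (SE; unadjusted p = 0.002, limma adjusted p = 0.28). *Elovl6* was at 1078, 1057 and 950.2 in WT and 1442, 1299 and 1211 in *SOD1* G93A libraries, without overlap, and its log2 difference was 0.36 ± 0.10 (SE; unadjusted p = 0.006, limma adjusted p = 0.39). *Scd1* was at 5221, 6203 and 4829 in WT and 8237, 6867 and 6250.1 in *SOD1* G93A libraries, where the lowest transgenic library was close to the highest WT library. Its log2 difference was 0.39 ± 0.14 (SE; unadjusted p = 0.02, limma adjusted p = 0.49). No gene of the other 3 lists was called with limma, and 2 supply genes, 0 SREBP processing genes and 3 transport genes of 14, 9 and 23 had an unadjusted p under 0.05, beside the 8.7% of all genes given above.

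In activated astrocytes 23 of 39 members were higher in *SOD1* G93A than in WT cells at an adjusted p under 0.05, each by less than 2-fold. Of all genes 4.6% were higher at that limit. The 23 were mostly cholesterol and fatty acid synthesis genes. None of the 5 LXR and efflux genes was among them, which is near the share of all genes, and the branches were not compared by a test. The sterol-making enzymes summed to 539, 509.8 and 549 RPKM in WT and 675, 649 and 678 in *SOD1* G93A libraries. The fatty acid enzymes summed to 1117, 1121 and 1279 and 1740.5, 1576 and 1773 on the same scale.

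Of the 39 members 0 were called with limma, 0 with DESeq2 and 0 with edgeR, where 0.645% of all 12098 genes tested were called with limma. At an adjusted p under 0.05, 23 members passed (59.0%), all of them higher in *SOD1* G93A, beside 7.27% of all genes and 4.6% of all genes in that direction. There were 26 at an unadjusted p under 0.05 (66.7%), beside 20.4% of all genes. The members' median log2 difference was 0.32 and that of all genes 0.00. By role, the adjusted limit was passed by 6 of 7 genes in the mevalonate arm, 8 of 11 in the sterol arm, 6 of 7 in fatty acid synthesis, 2 of 5 in SREBP control, 0 of 5 in LXR and efflux and 1 of 4 in transport and storage. The medians of these lists were 0.39, 0.37, 0.50, 0.16, 0.06 and 0.14. For the LXR and efflux list limma gave 0 genes at an unadjusted p under 0.05. The count of 23 became 19 with DESeq2, 22 with edgeR, 4 without the trend in limma and 14 without WT activated library 2. Over all genes the number higher went from 557 to 403, 579, 143 and 299 in those settings. *SOD1* G93A activated libraries were all shallower than WT activated libraries, so depth and genotype cannot be told apart in this comparison.

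The 3 members with the lowest p were *Insig1*, *Scd1* and *Elovl5*. *Insig1* was at 714, 656 and 801 in WT and 1322, 1321 and 1472 in *SOD1* G93A libraries. The groups were far apart, with a log2 difference of 0.93 ± 0.07 (SE; limma adjusted p = 3.0e-08) that passed 2-fold without WT activated library 3 (1.00). *Scd1* was at 4082, 4048 and 4864 in WT and 7962, 7437 and 8527 in *SOD1* G93A libraries. Each transgenic library was higher, by a log2 difference of 0.88 ± 0.07 (SE; limma adjusted p = 4.8e-08). *Elovl5* was at 708, 734 and 738 in WT and 1035, 983 and 1030.2 in *SOD1* G93A libraries, again without overlap (0.48 ± 0.06 (SE; limma adjusted p = 1.9e-05)). Of the other genes, *Acss2*, the cytosolic acetyl-CoA synthetase, was called, at 189, 133 and 158 in WT and 364, 333 and 354 in *SOD1* G93A libraries. It was higher in each transgenic library (1.14 ± 0.11 (SE; limma adjusted p = 3.3e-07)). 7 of 14 supply genes passed the wider limit, all higher, as did 1 of 9 SREBP processing and 3 of 23 transport genes, beside 7.27% of all genes. Oligodendrocyte lineage markers summed to 1166, 1203 and 1137 RPM in WT and 1143, 1112 and 1187 in *SOD1* G93A libraries, led by *Olig1*. Microglia markers summed to 240.5, 407 and 219.7 and 300.4, 209 and 226, and neuron markers to 383, 437 and 436 and 389.9, 403 and 424, both with overlap. The endothelial markers, nearly all *Flt1* with *Cldn5* and *Cdh5* at 0, summed to 137, 148 and 153 in WT and 118, 117 and 111 in *SOD1* G93A libraries. The pericyte and fibroblast markers, led by *Lum*, summed to 58.0, 53.8 and 47.1 and 34.7, 39.7 and 37.5, and both of these sums were lower in each transgenic library. Of 11 astrocyte markers 5 were higher and 2 lower at an adjusted p under 0.05. Of single markers, *Sox10*, picked after its values were seen, was at 26.7, 23.8 and 22.3 RPM in WT and 14.2, 11.2 and 12.2 in *SOD1* G93A libraries, and the part of these markers in the result was not tested.

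**Figure D3:**
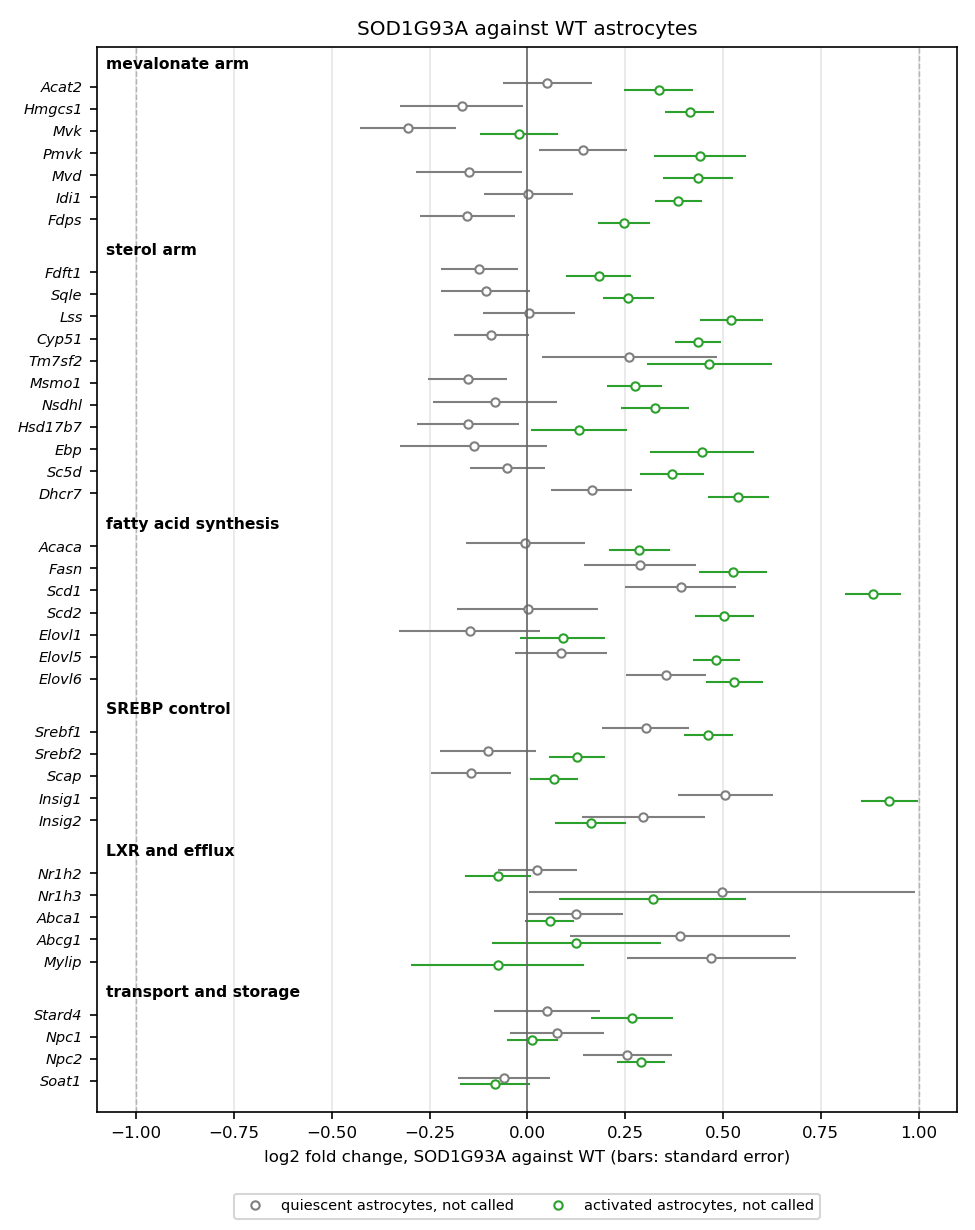
Log2 fold change of *SOD1* G93A against WT astrocytes for each member, quiescent in grey and activated in green, with bars giving the standard error and dashed lines the 2-fold limits. In activated astrocytes 35 of 39 estimates are positive, no member is called, and *Insig1* (0.93) and *Scd1* (0.88) lie furthest right.

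Whether the genotype difference changed with activation was tested as the difference between the genotypes' responses, with the same 12 astrocyte libraries. No member passed a limma adjusted p under 0.05, so the estimates and their signs only describe these libraries. A positive estimate stands for the *SOD1* G93A side. Estimates were positive for 31 of 39 members, beside a median of 0.00 over all genes. They were positive for all sterol and fatty acid synthesis genes and negative for the 5 LXR and efflux genes, and the branches were not compared by a test. Of 39 members, 0 were called with limma, 0 with DESeq2 and 0 with edgeR, and 0% of all 12269 genes tested were called with limma. With the limit at an adjusted p under 0.05 there were 0 members with limma, 0 with edgeR, 1 with DESeq2, and 1 with limma without WT quiescent library 1 or *SOD1* G93A quiescent library 1. With a term for depth in limma there were 15 (38.5%), all positive, the members' median was 0.50, and over all genes 1528 (12.5%) passed in place of 34 and 56 were called, none of them a member. In that fit all WT activated libraries are in the deeper class and all *SOD1* G93A activated libraries in the shallower one, so the term is set by the quiescent libraries. At an unadjusted p under 0.05, 16 members passed (41.0%), all positive, beside 8.3% of all genes and 3.9% of all genes in that direction. The members' median was 0.28 and that of all genes 0.00. All 12 microglia markers had negative estimates (median -0.70) and 9 of 11 astrocyte markers positive ones (median 0.41), and their part was not tested.

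*Cyp51*, *Mvd* and *Lss* had the lowest p. *Cyp51* was at 1217, 1348 and 1302 in WT quiescent and 1207, 1113 and 1143 in WT activated libraries. In *SOD1* G93A astrocytes it was at 1325, 1187 and 1114 in quiescent and 1529, 1552 and 1582 in activated libraries. The activated libraries were above the quiescent ones in *SOD1* G93A cells and below them in WT cells, with a log2 difference of responses of 0.53 ± 0.12 (SE; unadjusted p = 3.1e-04, limma adjusted p = 0.082). *Mvd*, the mevalonate diphosphate decarboxylase, was at 263, 217 and 223 and 205, 201 and 232 in quiescent and activated WT libraries. Its *SOD1* G93A libraries were at 228, 228 and 177 and 286, 287 and 286, and the groups separated only in the *SOD1* G93A cells of these 12 libraries (0.58 ± 0.16, SE; unadjusted p = 0.0024, limma adjusted p = 0.24). *Lss*, the lanosterol synthase, was at 371, 397 and 459.8 and 374, 333 and 406 in WT and at 465, 381 and 382 and 557, 510.5 and 521 in *SOD1* G93A libraries, quiescent first. It showed the same arrangement, at 0.52 ± 0.15 (SE; unadjusted p = 0.0034, limma adjusted p = 0.28).

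Between LPS-treated microglia of the genotypes no member was called. Of 37 members tested, 0 were called with limma, 0 with DESeq2 and 0 with edgeR, and 0% of all 10679 genes tested were called with limma. At an unadjusted p under 0.05, 1 member passed (2.7%) beside 8.71% of all genes, and the members' median log2 difference was 0.06. With a term for depth 8 members passed that limit (21.6%), beside 20.4% of all genes, so that count is no result about the members. Their median was 0.12, and 0 passed a limma adjusted p under 0.05. There were 3 without *SOD1* G93A library 2 (8.11%, with 10.2% of all genes) and 0 without the trend or without WT library 1, 2 or 3, where between 6.46% and 8.81% of all genes passed. The member of the first count was *Scd2*, at 1061, 1002 and 1192 in WT and 1251, 1363 and 2715 in *SOD1* G93A libraries. The groups did not overlap, and the log2 difference was 0.62 ± 0.26 (SE; unadjusted p = 0.04, limma adjusted p = 0.57). However, *SOD1* G93A library 3 stood apart from the rest, as it did in the chi-square above. The size of the difference depends on that library, whose 2715 was far above the 1251 and 1363 of its group. The same library had the highest sum of microglia markers, 7121 RPM, 10 of 12 of which had higher estimates in *SOD1* G93A libraries. The oligodendrocyte lineage markers, led by *Cspg4* and with *Mog* at 0 in all but WT library 1, summed to 146, 145 and 146 RPM in WT and 187, 193 and 283 in *SOD1* G93A libraries, higher in each of the latter and highest in library 3. The pericyte and fibroblast markers summed to 21.7, 22.2 and 18.2 in WT and 14.4, 15.9 and 10.9 in *SOD1* G93A libraries, and the endothelial markers to 45.6, 55.9 and 50.7 in WT and 49.0, 58.0 and 24.7 in *SOD1* G93A libraries. Library 3 was the lowest in both lists, and the part of these markers in the values of *Scd2* was not tested. *Npc1* was at 694, 928 and 850.4 in WT and 926, 892 and 1408 in *SOD1* G93A libraries, and *Abcg1* at 3977, 4731 and 4555 in WT and 5048, 4834 and 5497 in *SOD1* G93A libraries. Their log2 differences were 0.36 ± 0.19 and 0.22 ± 0.11 (SE; unadjusted p = 0.085 and 0.09, limma adjusted p = 0.59 and 0.59). No gene of the other 3 lists was called with limma, with 0, 0 and 3 at an unadjusted p under 0.05 in the supply, SREBP processing and transport lists of 11, 9 and 20 genes tested.

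Promoters were read to see whether the members, which differed between cell types by role, also share sequence. The RefSeq promoter table of build GRCm38.p6, covering 250 bases before to 50 bases after each start, held 41 promoters of 31 members. The letters TCACNCCAC, a form of the sterol regulatory element to which SREBPs bind, were searched on both strands and were found in 1 of the 41 (2.44%) and in 408 of all 32851 promoters (1.24%). The letters CCAAT, where the SREBP partner NF-Y binds, were found on either strand in 25 of the 41 (61.0%) and in 37.4% of all promoters. By role a CCAAT match occurred in 5 of 6 mevalonate genes with a promoter, 9 of 9 sterol genes, 3 of 5 fatty acid genes, 4 of 5 SREBP control genes, 1 of 4 LXR and efflux genes and 2 of 2 transport genes. Together that is 24 of 31 members (77.4%), beside 41.1% of all 27025 genes with a promoter in the table. The match to the sterol regulatory element was in *Hmgcs1*, the only member with one, so its sequence is shown. With 1 match, the share of 2.44% is no result about the members. It lies on the plus strand at chr13:119690101-119690350, and the capitals mark the element TCACCCCAC, 137 bases before the start, and the CCAAT matches, read here as ATTGG.
Hmgcs1: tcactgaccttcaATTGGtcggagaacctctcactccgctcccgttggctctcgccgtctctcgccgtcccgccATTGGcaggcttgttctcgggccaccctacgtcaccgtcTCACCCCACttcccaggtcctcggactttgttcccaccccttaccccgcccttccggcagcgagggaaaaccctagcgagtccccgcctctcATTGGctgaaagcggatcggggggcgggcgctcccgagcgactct
A match describes these letters in this window and shows no binding.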

How the data were processed

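RNA libraries were prepared with a strand-specific kit, and the authors aligned reads to mm10 with STAR and counted them per gene with RSEM. The tables they deposited hold a signal for each library, the gene count divided by a DESeq2 size factor, normalized separately in each of 6 tables. Whole reads were recovered from 100% of values within a tolerance of 0.01. The authors' own columns of mean, fold change, its error, test statistic and p-values were not used. The table of quiescent WT against LPS-treated *SOD1* G93A microglia served to count the genes that reach a mean of 10 in each table and to check recovered reads, and was not fitted.

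Each comparison was fitted with limma 3.58.1 with an intensity trend in R 4.3.3 on log2(normalized count + 1), which understates the change of low genes, over all genes averaging at least 10. A count test was not planned as the main one because the deposited values are normalized, and the plan was kept after whole reads were recovered. The 3 comparisons that join cell types or 4 groups, and the response of *SOD1* G93A astrocytes, used recovered reads scaled by median-of-ratios size factors. DESeq2 1.42.0 and edgeR 4.0.16 on recovered reads were alternatives, which called 1536 and 1477 genes in WT astrocytes and 2395 and 2357 in WT microglia, beside 1424 and 2263 with limma. Exon lengths and positions are those of GENCODE M21, and how reads were assigned by strand is not given in the sources used here.

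Members called in an activation comparison or between cell types are given singly, or the 3 largest of each role where over 20 were called, or the 3 lowest p between genotypes. *Insig1*, *Insig2*, *Srebf1*, *Srebf2*, *Abca1*, *Abcg1*, *Sqle*, *Hmgcs1*, *Fasn*, *Scd1* and *Scd2* are given in both WT activation comparisons, and of other pathway genes the 2 largest rises and falls called per list. The members, lists and tests were chosen with earlier results of these data known. Alternatives were other pseudocounts, filters, scalings, tools and limits, no trend, a replicate block, a depth term and leaving out each library.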

Additional observations from a re-analysis of the deposited data

How the results depend on the processing

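Of 280 alternatives of 14 counts of members, 250 stayed within 1.5 times the reported count and 30 did not. Of 204 alternatives of 12 list medians, 196 moved by less than the SD between libraries and 8 by more. Of 940 alternatives of 53 called genes, 897 kept the call, 43 lost it and 0 changed sign. Medians near 0 took the other sign in LXR and efflux in WT microglia with TMM scaling (0.0045) and without quiescent library 2 (0.0063), LPS library 1 (0.025) or LPS library 3 (0.0082), and in the mevalonate arm in WT astrocytes without activated library 2 (0.0086).

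The wider limit passed more genes, since it asks for less. At an adjusted p under 0.05 at any fold, 16 members passed in WT astrocytes (7 higher, 9 lower; 38.3% of all genes passed), 24 in WT microglia (5 higher, 19 lower; 56.9%), 24 in *SOD1* G93A astrocytes (43.4%), 20 in the difference of responses (41%) and 23 between genotypes in activated astrocytes (7.27%). At an adjusted p under 0.05 and over 2-fold, 2 of 39 members were higher in WT astrocytes, beside 921 of all 12336 genes, and 2 of 39 passed in *SOD1* G93A astrocytes, beside 1910 of all 12269. Both pairs include *Nr1h3*, which is not tested with at least 10 in every library.

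In WT microglia 0 members were called higher with a pseudocount of 0.5, with no filter, with at least 10 in every library (where *Nr1h3* is not tested), without the trend and with a depth term, and 2 with TMM scaling. Leaving out 1 library gave 0 to 2, with 0 without quiescent library 1 or 3 or LPS library 1 and 2 without quiescent library 2. With quantile normalization the medians there became -0.075 (mevalonate arm), -0.41 (SREBP control), -0.25 (LXR and efflux) and -0.94 (transport and storage). With at least 10 in every library they were -0.16 for LXR and efflux, over 4 genes, and -0.26 for transport and storage, over 3. Leaving out 1 library put the sterol arm there between -0.61 and -0.44, and transport and storage in WT astrocytes between -0.31 and -0.20. A depth term gave 3 calls in *SOD1* G93A astrocytes, and leaving out 1 library 1 to 2. Between genotypes in activated astrocytes, leaving out 1 library gave 0 to 1 calls, the 1 without WT library 3, and 14 to 22 members higher at an adjusted p under 0.05, the lowest without WT library 2, while 4 were higher without the trend (143 of all genes in place of 557). The cause was not tested where none is given. No depth term could be fitted there, where libraries of one genotype are all shallower. It left 0 members called in the other genotype comparisons, but at an adjusted p under 0.05 gave 2 members (5.13%, with 6.08% of all genes) in place of 0 between quiescent genotypes and 15 (38.5%, with 12.5% of all genes) in place of 0 for genotype by state. In LPS microglia it gave 8 at an unadjusted p under 0.05 in place of 1, which is 21.6% of members beside 20.4% of all genes and no result about the members.

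Replicate numbers were not taken to pair libraries. Deviations of libraries with the same number correlated between -0.44 and 0.13, and in no comparison were all over 0.1. Libraries of different numbers correlated more in quiescent astrocytes, WT library 3 with *SOD1* G93A library 1 (0.52) and WT library 1 with *SOD1* G93A library 3 (0.35), the deepest and the shallowest library of each group. With the replicate number as a block, 7 members were called in WT microglia in place of 8, without *Stard4*, and no count of calls moved by over 1.5 times. Between quiescent genotypes the members at an unadjusted p under 0.05 went from 6 (15.4%) to 2 (5.13%) with the block, as those of all genes went from 8.7% to 4.24%, so the second share is close to that of all genes. Depth limits *Tm7sf2*, *Nr1h3* and *Stard4* in microglia, where single libraries held few reads.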
